A study of Mus musculus with 11 samples.

Results

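Yap pathway genes and Yap target genes were examined in mouse liver after AAV8-mediated expression of the intracellular domains of Notch1 and Notch2. The 10 genes were taken from a list of names, drawn up with earlier results of these data known: the transcriptional effectors Yap1, Wwtr1 (also called Taz) and Tead1, the kinase Lats2, and the target genes Ccn1 (formerly Cyr61), Ccn2 (formerly Ctgf), Ankrd1, Amotl2, Ajuba and Axl. All 10 were found among the 22911 genes named on the array, and they were represented by 15 of 56605 probes. Tead1 and Lats2 each had 3 probes, Axl had 2, and each of the other genes had 1.

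Total liver RNA was hybridised to 11 one-colour Agilent arrays. All mice were male C57Bl6/J, 8 weeks old at injection according to the methods, and the livers were taken 5 days after an AAV8 injection of 6e+11 vector genomes in total. The GFP group (3 arrays) received the GFP vector alone. The NICD1 group (3 arrays) and the NICD2 group (3 arrays) received 3e+11 vector genomes of the vector for the intracellular domain of Notch1 or of Notch2, together with 3e+11 of the GFP vector. The NICD1&2 group (2 arrays) received both NICD vectors, at 3e+11 each, in the absence of the GFP vector. Per the methods, every vector used the CMV promoter, which is not restricted to hepatocytes, and the tissue was whole liver, so that fewer cells of a type and less RNA per cell cannot be told apart in any value below.

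The Hippo pathway is a kinase cascade that controls organ size, and its action in liver is well known from the overgrowth that follows its loss. The upstream kinases activate Lats1 and Lats2, which phosphorylate the coactivators Yap1 and Wwtr1 and keep them out of the nucleus. When this restraint is lifted, Yap1 and Wwtr1 bind TEAD factors such as Tead1 on the promoters and enhancers of target genes, among them Ccn1, Ccn2 and Ankrd1. Lats2 and Amotl2 are both regulators of the pathway and targets of it, which makes them part of a feedback loop. Yap activity is controlled largely at the protein level, and transcript levels of Yap1 itself do not measure it. Notch signaling acts through a different DNA-binding factor, RBPJ, to which the intracellular domain of the receptor binds.

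The sequences upstream of the start sites are shown for the 3 target genes that carried the largest differences or the recognition motifs of both pathways. The RefSeq promoter table (build GRCm38.p6) held 10 promoters for 8 of the genes, and none was printed for Ccn2 or Tead1. Each line gives the 250 bases before the start site, 5′ to 3′ on the strand of the gene. Capitals mark the TEAD motif GGAATG, or CATTCC on the other strand, and the RBPJ motif TGGGAA, or TTCCCA on the other strand.
Ccn1 (chr3:145649986-145650235, minus strand): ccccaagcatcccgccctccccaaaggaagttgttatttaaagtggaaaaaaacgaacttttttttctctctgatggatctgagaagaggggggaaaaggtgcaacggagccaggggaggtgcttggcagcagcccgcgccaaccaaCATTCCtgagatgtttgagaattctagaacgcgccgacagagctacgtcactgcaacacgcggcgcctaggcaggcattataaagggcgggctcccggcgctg
Ankrd1 (chr19:36119845-36120094, minus strand): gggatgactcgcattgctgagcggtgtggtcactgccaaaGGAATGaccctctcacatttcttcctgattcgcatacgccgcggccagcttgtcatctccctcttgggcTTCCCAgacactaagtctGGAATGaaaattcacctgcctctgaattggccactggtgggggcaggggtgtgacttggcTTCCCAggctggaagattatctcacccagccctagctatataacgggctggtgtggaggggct
Ajuba (chr14:54577662-54577911, minus strand): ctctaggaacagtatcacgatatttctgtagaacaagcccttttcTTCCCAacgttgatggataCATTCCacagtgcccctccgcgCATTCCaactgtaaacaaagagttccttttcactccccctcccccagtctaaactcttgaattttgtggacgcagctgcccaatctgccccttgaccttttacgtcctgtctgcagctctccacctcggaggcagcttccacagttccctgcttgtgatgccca

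Within windows of 250 bases before to 50 bases after the start, the TEAD motif was present in 9 of the 10 promoters and in all 8 genes matched, compared with 14.7% of the 32851 promoters in the table. The Ccn1 promoter held it once, at position -103 from the start, whereas the Ankrd1 and Ajuba promoters each held it at 2 positions. The RBPJ motif was present in the Ankrd1 promoter at 2 positions and in the Ajuba promoter at 1, compared with 25.6% of all promoters. The CArG box, bound by serum response factor, was found in 0 of the 10 promoters and in 1.63% of all promoters. In the Ankrd1 and Ajuba windows, the only ones shown with both, the TEAD and RBPJ motifs do not overlap. The target genes were known Yap targets when they were chosen, so that these shares only describe the windows, and a match is not a measured binding site.

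Expression is given as log2 of the background-corrected signal relative to the 75th percentile of the same array, so that values below 0 lie under that percentile, and only values of the same probe are compared. A difference was called when the limma p value, adjusted over all 36049 probes tested, was under 0.05. The study's own looser definition of an altered gene, an unadjusted P under 0.15 with a fold change over 1.8, was applied beside it. All 15 probes passed the filter of 2 arrays well above background, and 13 did so on all 11 arrays. The Ankrd1 probe was well above background only on NICD2 arrays 1 and 3, and entered the test through these alone.

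The arrays were of similar quality. Between 57.0% and 62.0% of the spots lay well above background on each array, and 0 spots were saturated. Replicates within a group correlated over the probes tested at r = 0.982 to 0.992. GFP 1 stood apart from the other GFP arrays in Ccn2, and differences of the 10 genes that rest on it are given with and without it. It also had the lowest median normalized level of all arrays (-4.66, against -4.11 and -4.29 in the other GFP arrays). Without GFP 1, probes altered and higher fell from 590 to 203 with NICD1 and from 458 to 265 with NICD2. Those altered and lower rose from 179 to 301 and from 244 to 605. Without GFP 2 or GFP 3 the higher ones rose instead, so that the shares of altered probes below depend on the GFP arrays. The number of arrays limits the precision of every comparison. Hepatocyte markers, such as Alb and Cps1, were well above background on all 11 arrays (8 of 8 genes), as were all markers of stellate, sinusoidal endothelial and Kupffer cells, while 2 of 6 mesothelial markers were so and Lrrn4 was dark on all arrays. Of the 5 mesothelial markers tested, 4 were higher than GFP with NICD1 (median 0.78), 5 with NICD2 (0.63) and 4 with NICD1&2 (0.64), with 0 called. By the altered definition 0 passed with NICD1, 2 with NICD2 (Msln, and Gpm6a, which was well above background on only 1 of 3 GFP and 2 of 3 NICD2 arrays) and 1 with NICD1&2 (Msln), beside 2.13%, 1.95% and 6.05% of all probes. The summed linear level of all 6 was 78.7 to 89.9 with GFP, 71.5 to 77.0 with NICD1, 87.4 to 90.5 with NICD2 and 64.0 to 98.7 with NICD1&2. Their mean log2 level was only -3.40 to -2.64 with GFP, so that the sum rests on few bright markers and does not measure the 6 as a set. The 6 include the keratin Krt18, and their specificity to mesothelial cells was not tested. The part of these markers in the Ccn2 and other differences below was not tested. Among genes read as a check on the vectors, the single Notch1 probe ranged from -0.99 to 0.50 and the single Notch2 probe from 1.08 to 1.51 over the 11 arrays. Notch1 differed from GFP by 0.22 in NICD1 (adjusted p = 0.937 by limma) and Notch2 by 0.20 in NICD2 (adjusted p = 0.766). Since the files do not say whether these probes lie within the vector cDNA, they do not check the labels. Hes1, a direct Notch target, was higher in all NICD2 arrays (-2.01, -1.66 and -0.68) than in all GFP arrays (-2.36, -3.22 and -3.66), but not in the NICD1 arrays (-3.73, -2.44 and -3.18). In the NICD1&2 arrays it stood at -1.70 and -1.78, also above all GFP arrays. By limma the adjusted p values for Hes1 were 0.993 for NICD1, 0.427 for NICD2 and 0.299 for NICD1&2 against GFP. Nrarp, a Notch feedback inhibitor named after its values were seen, was dark on all GFP arrays. It was at least 1.28-fold higher with NICD1 (measured on 2 of 3 arrays, with overlap in the normalized values, adjusted p = 0.822 by limma), 4.62-fold with NICD2 (adjusted p = 0.104) and 6.97-fold with NICD1&2 (adjusted p = 0.0723). It entered the test only through NICD arrays, so that its p values support nothing. Of the 8 genes of this check, 0 were called, beside 0.00832%, 0.0527% and 0.103% of all probes with NICD1, NICD2 and NICD1&2. The altered definition was met by 1 with NICD1 (Nrarp), 2 with NICD2 (Hes1 and Nrarp) and 3 with NICD1&2 (Hes1, Nrarp and Sox9), beside 2.13%, 1.95% and 6.05%. The fold of Nrarp is not measured on the GFP side, and its bound with NICD1 lies under the 1.8-fold of the definition, so that with measured genes alone the counts were 0, 1 and 2. Hey1 differed from GFP by 0.10 with NICD1 (adjusted p = 0.943), by 0.28 with NICD2 (adjusted p = 0.808) and by 0.69 with NICD1&2 (adjusted p = 0.173).

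By the adjusted test, 0 of the 10 genes were called in any of the 4 comparisons. Over all probes tested, 0.00832% were called for NICD1 against GFP, 0.0527% for NICD2 against GFP, 0.103% for NICD1&2 against GFP and 0.00277% for NICD1 against NICD2. At an unadjusted p under 0.05, 2 of the 10 genes passed for NICD1 (Lats2 and Ccn1) against 5.61% of all probes, 3 for NICD2 (Ccn2, Ankrd1 and Ajuba) against 6.84%, 1 for NICD1&2 (Ajuba) against 14.3%, and 1 for NICD1 against NICD2 (Ajuba) against 3.76%. The lowest adjusted p was 0.226, for Ajuba in NICD1&2 against GFP. The altered definition was met by 1 gene with NICD1 (Ccn1), 3 with NICD2 (Ccn1, Ccn2 and Ankrd1), 1 with NICD1&2 (Ccn2) and 0 between NICD1 and NICD2, where 2.13%, 1.95%, 6.05% and 1.22% of all probes met it. Ankrd1 was not above background on any GFP array, so that its fold and p value with NICD2 are not measured on the GFP side, and without it 2 genes were altered and 2 passed at an unadjusted p under 0.05 with NICD2. With the slide as a block, the altered gene with NICD1&2 was Ccn1 (difference -0.92, unadjusted p = 0.00962 by limma) in place of Ccn2 (0.81, unadjusted p = 0.103), and Ccn1 (unadjusted p = 0.00391) took the place of Ankrd1 (unadjusted p = 0.0547) at an unadjusted p under 0.05 with NICD2. The 3 comparisons with GFP share the same GFP arrays, so that a high or low GFP array moves all of them together. The median difference over all probes tested in NICD1&2 against GFP was 0.0957, and the values of that group are to be read against it.

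**Figure D1:**
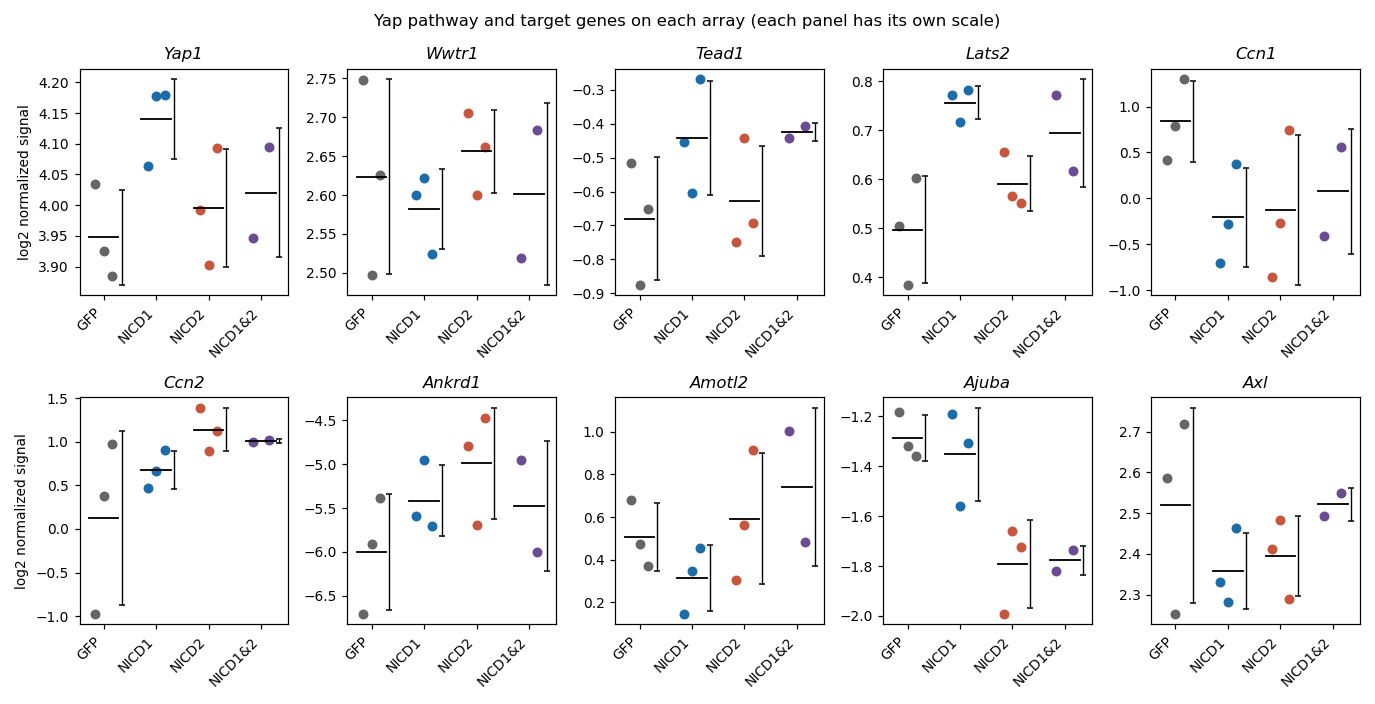
Each panel plots the log2 normalized signal of a gene (y axis, its own scale in each panel) on the 11 arrays by group (x axis). Points are arrays, the horizontal bar is the group mean and the error bar is 1 SD. Ccn1 is lower in all NICD1 arrays than in the GFP arrays, the GFP arrays of Ccn2 spread from -0.97 to 0.97, and Ajuba is lower in the NICD2 and NICD1&2 arrays than in all others.

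The effectors differed little between groups. Yap1, the coactivator restrained by the pathway, measured 4.03, 3.93 and 3.88 in the GFP arrays and 4.06, 4.18 and 4.18 in the NICD1 arrays. The NICD1 arrays were all above the GFP arrays, by 0.19 on average (SE 0.09, adjusted p = 0.895). The values were 3.99, 3.90 and 4.09 with NICD2 and 3.95 and 4.09 with NICD1&2, and both groups overlapped with GFP. The 95% intervals of the difference from GFP were -0.02 to 0.41 for NICD1, -0.17 to 0.26 for NICD2 and -0.17 to 0.31 for NICD1&2.

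Wwtr1, the paralog of Yap1, measured 2.75, 2.50 and 2.63 with GFP, 2.60, 2.62 and 2.52 with NICD1, 2.71, 2.60 and 2.66 with NICD2, and 2.52 and 2.68 with NICD1&2. All groups overlapped, and the largest of the 4 differences was -0.07 between NICD1 and NICD2 (SE 0.10). Tead1, a DNA-binding partner of both coactivators, stood at -0.52, -0.87 and -0.65 with GFP by its brightest probe, and at -0.44 and -0.41 with NICD1&2, a difference of 0.26 (SE 0.15, adjusted p = 0.444) without overlap. The values were -0.45, -0.60 and -0.27 with NICD1 and -0.75, -0.44 and -0.69 with NICD2, overlapping with GFP. A dim Tead1 probe, A_55_P2011390, was well above background on 2 NICD1 and 3 NICD2 arrays and on 0 GFP and 0 NICD1&2 arrays. It entered the test only through those NICD arrays, so that its p values support nothing. By that probe Tead1 was at least 1.34-fold higher with NICD1 than with GFP (adjusted p = 0.781) and at least 1.27-fold higher with NICD2 (adjusted p = 0.589), a bound set by the dimmest signal well above background, while the other 2 probes showed differences from GFP of 0.24 and 0.03 with NICD1 and of 0.05 and -0.01 with NICD2.

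Lats2, the kinase that inactivates Yap1 and is itself induced by Yap, measured 0.50, 0.38 and 0.60 with GFP and 0.77, 0.72 and 0.78 with NICD1. All NICD1 arrays were above all GFP arrays, by 0.26 (SE 0.09, 95% interval 0.05 to 0.47), and the adjusted p was 0.846. They were also above the NICD2 arrays (0.66, 0.57 and 0.55), by 0.17 (SE 0.09, adjusted p = 0.9999). The NICD1&2 arrays (0.77 and 0.62) lay above GFP as well, by 0.20 (SE 0.10, adjusted p = 0.403). The 3 Lats2 probes did not give the same direction. For NICD1 against GFP the other 2 probes differed by -0.02 and 0.42, and for NICD1 against NICD2 by -0.20 and 0.13.

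Among the target genes, Ccn1, which encodes a secreted matrix protein, had the largest difference with NICD1. It measured 0.42, 0.79 and 1.30 in the GFP arrays and -0.71, -0.28 and 0.37 in the NICD1 arrays. All NICD1 arrays were below all GFP arrays, by 1.05 log2 units, a 2.06-fold lower mean (difference -1.05, SE 0.46, 95% interval -2.09 to -0.0022). The unadjusted p of limma was 0.050 and the adjusted p 0.885. The exact two-sided permutation test gave p = 0.1, the smallest it can give for 3 against 3 arrays. Without NICD1 array 1 the difference was -0.80 and the altered definition was no longer met, nor was it without GFP array 3.

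With NICD2, Ccn1 measured -0.86, -0.27 and 0.75, so that array 3 overlapped with GFP. The mean was lower by -0.97 on the log2 scale (SE 0.46, adjusted p = 0.765), and by -0.60 without NICD2 array 1. With NICD1&2 the values were -0.41 and 0.56, a difference of -0.76 (SE 0.51, adjusted p = 0.492) that was -0.28 without NICD1&2 array 1 and -1.25 without NICD1&2 array 2. In order of group means, GFP was highest at 0.84 ± 0.44 (SD, n = 3), followed by NICD1&2 at 0.08 ± 0.68 (n = 2), NICD2 at -0.13 ± 0.81 (n = 3) and NICD1 at -0.21 ± 0.54 (n = 3). The 3 NICD groups did not differ beyond their spread.

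The arrays were divided over 2 slides, and each group was split between them. Slide 2 held GFP 3, NICD1 2 and 3, NICD2 3 and NICD1&2 2, and slide 1 the remaining 6. Ccn1 was lower than GFP with NICD1 within slide 1 (-1.31) and within slide 2 (-1.26), with NICD2 within slide 1 (-1.17) and within slide 2 (-0.56), and with NICD1&2 within both (-1.01 and -0.74). With the slide as a block, the difference was -1.35 for NICD1 (unadjusted p = 0.000627, adjusted p = 0.578 by limma). The immediate early genes, which respond within minutes to handling, growth factors and other stimuli, varied between the arrays of each group. The mean log2 level of 12 of them, among them Fos, Egr1 and Atf3, was -0.07 and 1.16 in the GFP arrays of slide 1 and 1.22 in that of slide 2. It was -1.28, 0.97 and 1.33 in the NICD1 arrays, -0.67, 0.40 and 1.79 in the NICD2 arrays, and -0.24 and 1.68 in the NICD1&2 arrays. In each of the 4 groups the array with the lowest level of these genes, array 1, was also the array with the lowest Ccn1. All 12 genes had a lower mean with NICD1 than with GFP (median -0.48, beside 0.01 over all probes tested). Of the 12, 0 were called and 0 altered, beside 0.00832% and 2.13% of all probes. Without NICD1 array 1, 10 of the 12 were higher than GFP (median 0.26), and with each other NICD1 or GFP array left out the median lay between -1.08 and -0.06. The 7 Kupffer cell markers had lower means with NICD1 (7 of 7, median -0.27) and with NICD2 (6 of 7, median -0.24). Of these, 0 were called in either group, beside 0.00832% and 0.0527% of all probes. With NICD1, 1 was altered (Marco, difference -0.89), beside 2.13% of all probes. With NICD1&2, 4 of 7 were lower (median -0.03). Their summed level was 60.2 to 87.3 with GFP, 58.8 to 67.5 with NICD1, 61.2 to 69.4 with NICD2 and 75.04 to 85.7 with NICD1&2, and 0 of 7 were at background. The part of the immediate early genes and of Kupffer cells in the Ccn1 difference was not tested.

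Ccn2, a matrix protein related to Ccn1 and likewise a classical Yap target, did not follow Ccn1. It measured -0.97, 0.38 and 0.97 with GFP, 0.47, 0.66 and 0.90 with NICD1, 1.39, 0.90 and 1.12 with NICD2, and 0.996 and 1.02 with NICD1&2. The GFP arrays spread more widely than the NICD arrays, and GFP 1 lay well under all other arrays. The difference from GFP was 1.01 with NICD2 (SE 0.41, unadjusted p = 0.036, adjusted p = 0.688 by limma), 0.88 with NICD1&2 (SE 0.46, adjusted p = 0.401) and 0.55 with NICD1 (SE 0.41, adjusted p = 0.912). Only in NICD1&2 were all arrays above all GFP arrays.

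The higher Ccn2 means rested on GFP 1. Without that array the difference was 0.46 with NICD2, 0.34 with NICD1&2 and 0.00 with NICD1, and the altered definition was met by 1 of the 10 genes for NICD2 in place of 3. Within slide 1, which holds GFP 1, Ccn2 was higher by 1.44 with NICD2 and by 1.29 with NICD1&2, and within slide 2 by 0.15 and 0.05. With NICD1 the Ccn2 difference was 0.76 within slide 1 and -0.19 within slide 2. GFP 1 also had the lowest mean level of the 9 stellate cell markers of any array (-0.24, against 0.04 and 0.15 in the other GFP arrays, 0.04 to 0.12 with NICD1, 0.15 to 0.20 with NICD2, and -0.13 and 0.28 with NICD1&2). All 9 were well above background on every array, and their summed level ranged from 42.1 to 49.6 with GFP, 42.5 to 48.0 with NICD1, 49.7 to 53.2 with NICD2 and 44.1 to 54.3 with NICD1&2. Their part in the Ccn2 difference was not tested.

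**Figure D2:**
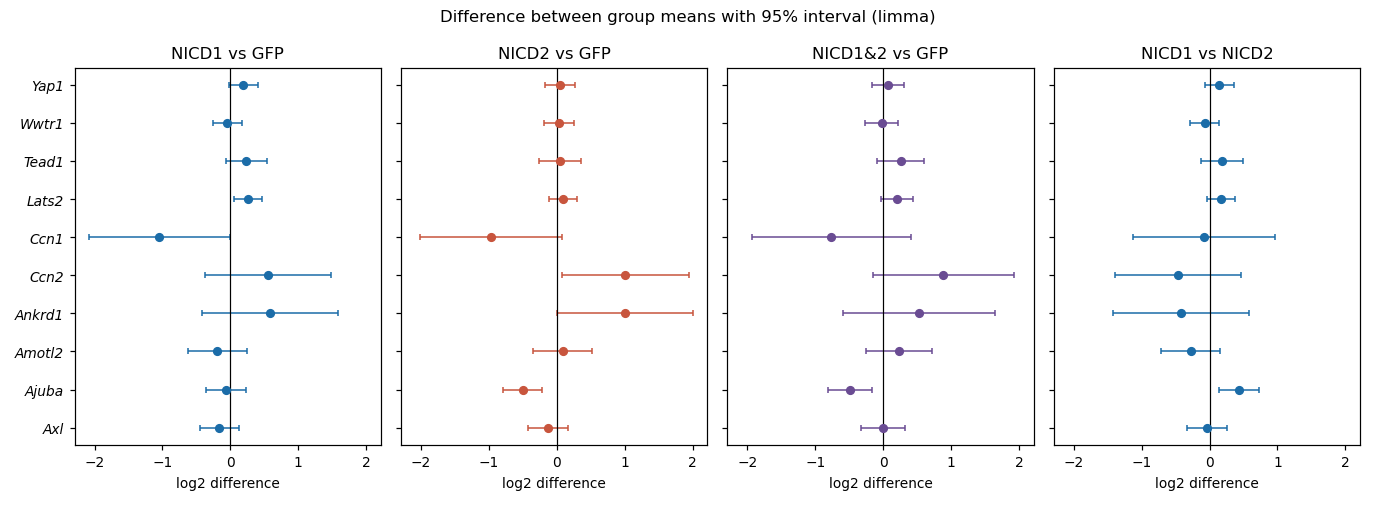
Log2 difference between group means (x axis) for each gene (y axis), with the 95% interval of the limma fit, in the 4 comparisons. Most effectors and targets lie within 0.3 of 0, while Ccn1, Ccn2 and Ankrd1 have wide intervals and Ajuba lies below 0 in NICD2 and NICD1&2 but not in NICD1.

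Ajuba, an adaptor protein of the LIM family that binds Lats kinases and limits their action, had an interval that left out 0 in 3 of the 4 comparisons. It measured -1.18, -1.32 and -1.36 with GFP, -1.19, -1.56 and -1.31 with NICD1, -1.99, -1.66 and -1.72 with NICD2, and -1.82 and -1.74 with NICD1&2. Every array that received the NICD2 vector was lower than every array that did not. The difference from GFP was -0.50 with NICD2 (SE 0.13, 95% interval -0.79 to -0.21, unadjusted p = 0.004, adjusted p = 0.370 by limma) and -0.49 with NICD1&2 (SE 0.14, 95% interval -0.82 to -0.16, adjusted p = 0.226). With NICD1 it was -0.07 (95% interval -0.36 to 0.23).

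The direct comparison of NICD1 with NICD2 gave a difference in Ajuba of 0.44 (SE 0.13, 95% interval 0.15 to 0.73, unadjusted p = 0.008). The adjusted p was 0.9999, so that the difference between the NICD groups did not pass the test over all probes. The exact two-sided permutation test gave p = 0.1 for NICD2 against GFP and for NICD1 against NICD2, the smallest possible. Ajuba was lower than GFP with NICD2 within slide 1 (-0.57) and within slide 2 (-0.36). With each array left out in turn, the difference of NICD2 from GFP ranged from -0.57 to -0.40 and that of NICD1&2 from -0.53 to -0.44. In size these differences, 1.42-fold with NICD2 and 1.40-fold with NICD1&2 over all arrays, are below the fold change of 1.8 in the altered definition. With normexp background correction and quantile normalization they were smaller, at -0.26 for NICD2, -0.23 for NICD1&2 and 0.22 for NICD1 against NICD2.

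Groups without overlap in both directions were counted over all probes as a reference. They made up 12.4% of probes for NICD1 against GFP, where Yap1, Lats2 and Ccn1 did not overlap (3 of 10 genes). They made up 13.2% for NICD2 against GFP, where Ajuba did not (1 of 10), 33.7% for NICD1&2 against GFP, where Tead1, Lats2, Ccn2 and Ajuba did not (4 of 10), and 9.27% for NICD1 against NICD2, where Lats2 and Ajuba did not (2 of 10).

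**Figure D3:**
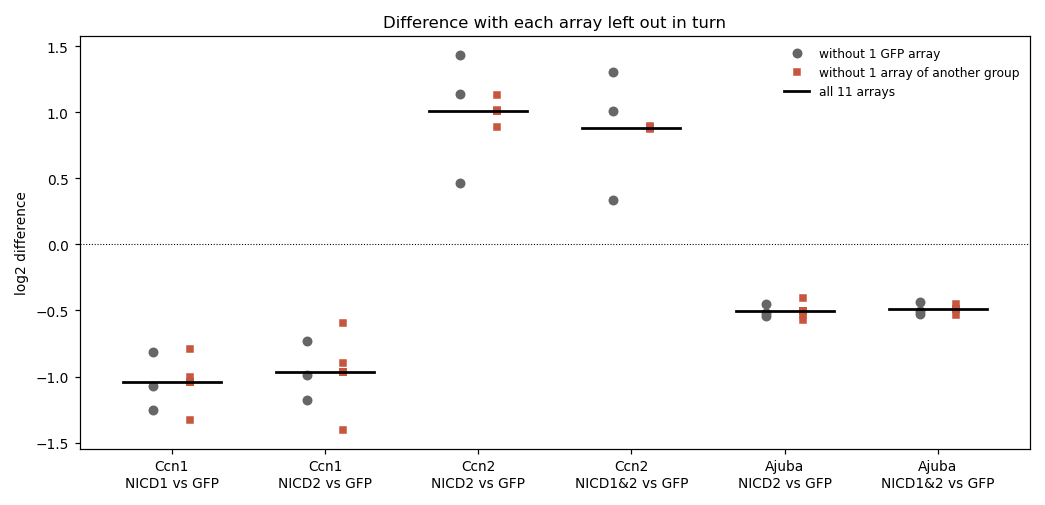
Log2 difference (y axis) for 3 target genes in 2 comparisons each (x axis), with all 11 arrays (bar) and with each array left out in turn (grey circles for a GFP array, red squares for an array of another group). The Ccn2 differences drop to 0.46 and 0.34 without GFP 1, while Ajuba stays between -0.57 and -0.40.

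The other target genes showed smaller differences or low signal. Ankrd1, a nuclear ankyrin repeat protein and classical Yap target, was not well above background on any GFP, NICD1 or NICD1&2 array, and was so on 2 of 3 NICD2 arrays. Its values were -6.70, -5.91 and -5.39 with GFP, -5.59, -4.95 and -5.70 with NICD1, -4.79, -5.70 and -4.48 with NICD2, and -4.96 and -6.00 with NICD1&2. With NICD2 it was at least 1.21-fold higher than with GFP, again taking the dimmest signal well above background as the bound, with an adjusted p of 0.729 by limma and with overlap between the groups. In normalized values, which are not measured on the GFP side, the difference with NICD2 was 1.01, and 0.66 without GFP 1. With NICD1 it was 0.59, and 0.23 without GFP 1.

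Amotl2, an angiomotin that binds Yap1, measured 0.68, 0.47 and 0.37 with GFP, 0.15, 0.35 and 0.45 with NICD1, 0.30, 0.56 and 0.91 with NICD2, and 1.004 and 0.48 with NICD1&2, with overlap in every comparison. Its differences from GFP were -0.19 (95% interval -0.63 to 0.24), 0.09 (-0.35 to 0.52) and 0.24 (-0.25 to 0.72). Axl, a receptor tyrosine kinase for Gas6, measured 2.59, 2.25 and 2.72 with GFP, 2.33, 2.28 and 2.46 with NICD1, 2.41, 2.48 and 2.29 with NICD2, and 2.49 and 2.55 with NICD1&2 by its brighter probe. Each NICD group overlapped with GFP, with differences of -0.16, -0.12 and 0.00. The first 2 depended on the GFP arrays, at -0.29 and -0.26 without GFP 2 and at -0.06 and -0.03 without GFP 3.

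Genes of the same pathway from lists of named members were read for comparison. Of 30 other components of the Hippo pathway, from upstream kinases to TEAD factors and their cofactors, 28 were tested (not Tead4 and Vgll3). Of these components, 0 were called or altered in any comparison. Over all probes, at most 0.103% were called, and 2.13%, 1.95%, 6.05% and 1.22% altered in the 4 comparisons. At an unadjusted p under 0.05, 2 of the 28 passed for NICD1, 2 for NICD2 and 4 for NICD1&2, beside 5.61%, 6.84% and 14.3% of all probes. The median difference of the 28 from GFP was 0.08, 0.04 and 0.03 with NICD1, NICD2 and NICD1&2, beside 0.01, 0.01 and 0.10 over all probes tested. Map4k4, a kinase upstream of Lats1 and Lats2, was higher in every NICD array than in every GFP array. It measured -0.87, -0.99 and -1.13 with GFP, -0.65, -0.65 and -0.77 with NICD1, -0.63, -0.58 and -0.66 with NICD2, and -0.70 and -0.71 with NICD1&2, with differences of 0.31, 0.37 and 0.29 and adjusted p values of 0.772, 0.351 and 0.283 by limma. Vgll4, a competitor of Yap1 for TEAD factors, had differences from GFP of 0.64 (NICD1, adjusted p = 0.859) and 0.59 (NICD2, adjusted p = 0.681), and differed by -0.15 with NICD1&2 (adjusted p = 0.789), with GFP 1 the lowest array at -2.80. Without GFP 1 these differences were 0.36, 0.31 and -0.43. Tead3 differed from GFP by -0.27 with NICD1 (adjusted p = 0.885), Amot by 0.31 with NICD2 (adjusted p = 0.778), and Rassf1 and Scrib by 0.38 and 0.39 with NICD1&2 (adjusted p = 0.279 and 0.294).

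Of 22 other genes described as Yap targets, 20 were tested (not Foxf2 and Gli2). Of the 20, 0 were called, beside 0.00832%, 0.0527% and 0.103% of all probes with NICD1, NICD2 and NICD1&2. The altered definition was met by 3 with NICD1, all lower and among them F3 and Nuak2, by 4 with NICD2, among them F3 (lower), Thbs1 and Birc5 (both higher), and by 2 with NICD1&2, among them Birc5 (higher), beside 2.13%, 1.95% and 6.05% of all probes. The Thbs1 probe was well above background on only 1 of 3 GFP and 2 of 3 NICD2 arrays, and these groups overlapped. The median difference was 0.01, 0.05 and 0.03. F3, which encodes tissue factor, measured 0.71, 0.67 and 0.17 with GFP, -0.56, -0.42 and -0.30 with NICD1, and -0.61, -0.40 and -0.27 with NICD2. The NICD1 and NICD2 arrays were all lower than GFP, by -0.95 in both (SE 0.16, adjusted p = 0.482 and 0.125), and by -0.85 in both without GFP 1, close to the 1.8-fold limit. With NICD1&2 it measured 0.22 and 0.19, a difference of -0.31 (adjusted p = 0.437), and the values overlapped with GFP.

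Birc5 (survivin), an inhibitor of apoptosis that is also needed for chromosome segregation, had the lowest adjusted p of the list with NICD2 and with NICD1&2. It measured -1.58, -1.33 and -1.45 with GFP, -1.01, -1.14 and -1.02 with NICD1, -0.83, -0.49 and -0.49 with NICD2, and -0.50 and -0.51 with NICD1&2. The NICD arrays were all above the GFP arrays, by 0.40 with NICD1 (SE 0.12, adjusted p = 0.772), 0.85 with NICD2 (SE 0.12, adjusted p = 0.0653) and 0.95 with NICD1&2 (SE 0.13, adjusted p = 0.0515), just short of the threshold in the last. With NICD2 the fold of 1.804 lay at the 1.8-fold limit of the altered definition. Without GFP 1 the differences were 0.34, 0.79 and 0.89, and that with NICD2 was under this limit. Nuak2, a kinase, differed by -1.01 with NICD1 (adjusted p = 0.772), and by -0.70 without GFP 1, and Cdc20, a mitotic activator, differed by 0.45 with NICD1&2 (adjusted p = 0.357).

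**Figure D4:**
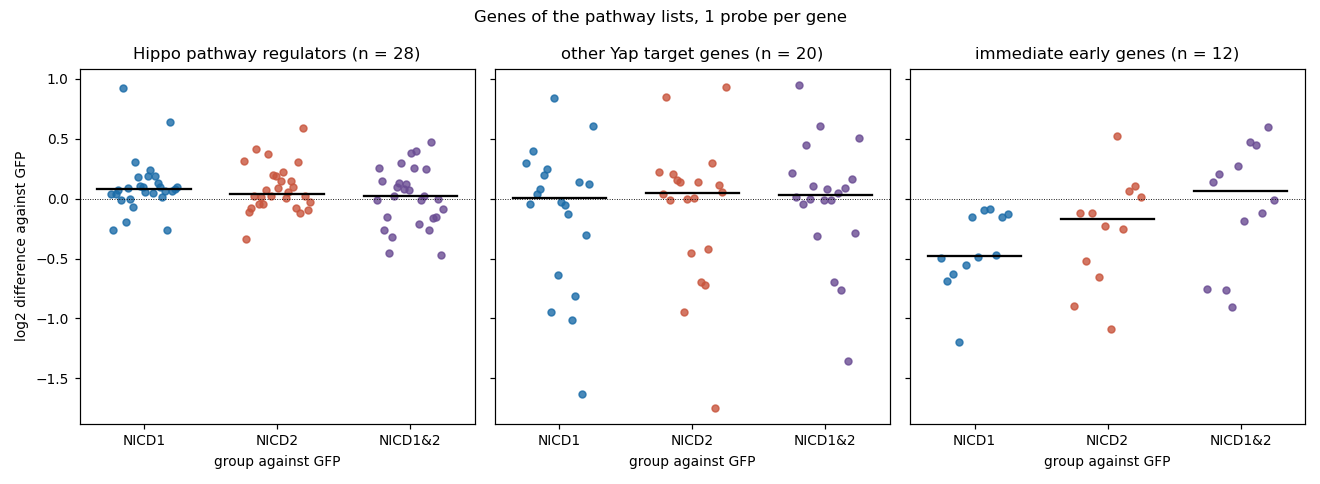
Log2 difference against GFP (y axis) for the tested genes of 3 lists by NICD group (x axis), 1 probe per gene, with the median as a bar. The medians of the Hippo pathway regulators and of the other Yap targets lie between 0.01 and 0.08, and that of the immediate early genes is -0.48 with NICD1.

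The summed level of bile duct cell markers differed between the groups. For the 7 markers it was 5.15 to 7.08 with GFP, 15.4 to 20.7 with NICD1, 15.3 to 20.4 with NICD2 and 21.5 to 26.5 with NICD1&2. Of the 7, 5 were well above background on all arrays. The sum is taken on the linear scale, so that the brightest markers weigh most. Against GFP, 5 of 7 were higher with NICD1 (median log2 difference 0.41), 5 with NICD2 (0.15) and 6 with NICD1&2 (0.30), and the rest were lower. Spp1 (osteopontin), which is also expressed outside duct cells, was the only marker that was called, with NICD2 and with NICD1&2. Over all probes, 0.0527% and 0.103% were called. Spp1 was also the only marker that met the altered definition, in each NICD group, beside 2.13%, 1.95% and 6.05% of all probes. The part of the bile duct signal in the values of Ajuba, Ccn2 or Birc5 was not tested.

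Over the 11 arrays, the genes whose profiles were among the most like that of Ccn1, of 16592 compared, included Bhlhe40 (Pearson r = 0.929) and Rarres1 (0.926). Cebpd (0.950), Tubb1 (0.929) and Cxxc4 (0.919) were nearest to Ccn2, and 4930402H24Rik (0.933), Unc119b (0.916) and Yars (0.904) were nearest to Yap1. These are the highest of many values over few arrays, shared between groups and slides, and are given as a description only.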

How the data were processed

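Total liver RNA was profiled on 11 one-colour Agilent arrays (62976 spots; the methods name an 8 x 44 K format, and the labels and methods name different RNA kits). The deposited scanner files hold the processed signal intensity of each spot, background-subtracted by the authors with Agilent Feature Extraction 11.5.1.1. The deposited value table holds log2 values of the same signal less a constant per array, and the authors' methods state scaling to the 75th percentile. The scanner files were used. Control spots and outlier-flagged spots were left out, spots of a probe averaged, and log2 values taken relative to the 75th percentile of each array. A probe was tested if flagged well above background on 2 or more of the 11 arrays (36049 of 56605), in limma 3.58.1 (R 4.3.3) with all 4 groups in a single fit and Benjamini-Hochberg adjustment. The fit was tested on simulated data. The methods state 3 or more mice per group for experiments in general, but the labels do not tie each array to a separate mouse, so p-values measure only the spread between these arrays, which may be technical. Samples were grouped by their labels. For a gene with several probes, the brightest on average stood for it. Genes were named through RefSeq accessions (assembly GRCm38.p6), which gave a name to 32994 probes. Named besides the 10 members were the 3 list genes with the lowest p for each NICD group against GFP, the 3 genes with the most similar profile for Yap1, Ccn1 and Ccn2, and Notch1, Notch2, Hes1 and Hey1. The members and gene lists were chosen with earlier results of these data known. The motifs were chosen after the promoter table was at hand. Exact permutation tests used scipy 1.17.1. Alternatives covered normalization, background correction, the deposited table, filters, samples in the fit, moderation, slide and replicate blocks, other probes, thresholds and leaving out each array. Not every gene that the rule for named genes picks is reported here. Thbs1, Spp1, Nrarp, Sox9 and the marker genes given as examples were named after their values were seen.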

Additional observations from a re-analysis of the deposited data

Results flagged for a closer look

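In 2 probes the NICD groups lay on opposite sides of the GFP mean. The dim Tead1 probe A_55_P2011390 was above the GFP mean in all NICD1 arrays (mean difference 0.785 on the log2 scale) and in all NICD2 arrays (0.714) and below it in both NICD1&2 arrays (-0.598). It was well above background on 5 of 11 arrays and on 0 of the GFP and NICD1&2 arrays, so that only the lower bounds of 1.34-fold for NICD1 and 1.27-fold for NICD2 are measured and the NICD1&2 difference has no settled direction. The difference between the NICD groups was not tested. The dimmer Axl probe A_65_P08024 was above the GFP mean in all NICD1 arrays (0.311) and below it in all NICD2 arrays (-0.248). The difference between these groups was 0.56, with an adjusted p of 0.9999 by limma, and the brighter Axl probe showed a difference of -0.04 between them.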

How the results depend on the processing

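No gene of the 10 was called by the adjusted test under any of the alternatives, and the lowest adjusted p over all of them was 0.135. Of 936 values of single genes under an alternative, 29 turned sign in a fit, most of them close to 0, and of the 80 that were taken within a slide 13 had the opposite sign. Limits of these data are the 2 or 3 arrays per group, the shared GFP arrays and an Ankrd1 signal near background. The number of altered genes for NICD1 against GFP was 1, and it was 0 with normexp and quantile normalization and 0 to 2 with arrays left out. For NICD2 it was 3, and 1 with normexp and 1 to 3 with arrays left out (1 without GFP 1). For NICD1&2 it was 1, and 0 with the percentile taken over detected probes, with normexp, with only the groups compared in the fit, and at P under 0.05 with fold over 2, and 0 to 2 with arrays left out. The cause was not tested. Which genes were altered changed as well: with NICD1 they were Ccn2 and Ankrd1 in place of Ccn1 without GFP 3, and with NICD1&2 Ccn1 in place of Ccn2 without GFP 1 and with the slide as a block.

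The sign of the NICD1&2 difference of Yap1 turned to -0.0581 under quantile normalization and -0.0492 with normexp. That of Axl turned to -0.0806, -0.0541 and -0.117 under quantile normalization, the percentile over detected probes and normexp, and to -0.0077 with the slide as a block. Other probes turned the sign for Lats2 (-0.0245 for NICD1 against GFP, -0.20 for NICD1 against NICD2), Axl (0.31 for NICD1 against GFP, 0.56 for NICD1 against NICD2) and Tead1 (-0.0140 for NICD2 and -0.60 for NICD1&2 against GFP).

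With arrays left out, differences from GFP ranged as follows where a sign turned. With NICD1, Wwtr1 ranged from -0.105 to 0.0209 and Ajuba from -0.146 to 0.0370. With NICD2, Yap1 ranged from -0.00089 to 0.0950, Wwtr1 from -0.0311 to 0.0945, Tead1 from -0.0447 to 0.135 and Amotl2 from -0.0750 to 0.230. With NICD1&2, Yap1 ranged from -0.0013 to 0.146, Wwtr1 from -0.105 to 0.0602, Amotl2 from -0.0264 to 0.496 and Axl from -0.131 to 0.102. Without a turn of sign, but by over 1.5 times, Tead1 moved from 0.24 to 0.14 with NICD1 and from 0.26 to 0.16 with NICD1&2 without GFP 2, Amotl2 from -0.19 to -0.11 with NICD1 without GFP 1, and Lats2 from 0.09 to between 0.04 and 0.15 with NICD2 and from 0.20 to 0.12 with NICD1&2 without NICD1&2 1. Between NICD1 and NICD2, Ccn1 ranged from -0.447 to 0.359 and Axl from -0.0887 to 0.0086.

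Over all probes tested, replicate numbers did not pair the arrays. Same-numbered arrays had correlations of their deviations from -0.43 to 0.18, over 0.1 in 6 of 15 pairs. With the replicate number as a block, 0 genes were called, and the altered counts were 1, 3, 1 and 0 as without it. For Ccn1 the block lowered the SE from 0.46 to 0.17 with NICD1 and with NICD2. With the block its difference was -1.05 for NICD1 (unadjusted p = 0.000554, adjusted p = 0.538 by limma). It was -0.97 for NICD2 (unadjusted p = 0.000878, adjusted p = 0.283) and -0.44 for NICD1&2 (SE 0.20, unadjusted p = 0.0637, adjusted p = 0.382). In each group Ccn1 was lowest on array 1, and a pairing by replicate number was not tested for single genes.

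Chosen after seeing the data, leaving out each array of NICD1 and GFP moved the median difference of the immediate early genes from -0.48 to between -1.08 and 0.26, and that of the Kupffer cell markers from -0.27 to between -0.45 and -0.12. Among the other named genes, the difference from GFP turned sign for Vgll4 with NICD1&2 (range -0.43 to 0.0136, and 0.0112 without NICD1&2 1), Hes1 with NICD1 (-0.373 to 0.323, and 0.272 without NICD1 1) and Hey1 with NICD1 (-0.0171 to 0.230). It ranged from 0.19 to 0.44 for Amot with NICD2, from 0.24 to 0.65 for Cdc20 with NICD1&2 and from -0.49 to -0.21 for F3 with NICD1&2. For Notch1 with NICD1 the range was 0.09 to 0.33, and for Hey1 with NICD2 it was 0.16 to 0.41.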
